A study of Mus musculus with 12 samples.

Results

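The molecular chaperones of the cytosol and the mitochondria were examined as 1 set of 38 genes among the 17432 in the deposited table of mouse liver. The set was taken by gene symbol. It holds the heat shock factor Hsf1, the HSP70 and HSP110 proteins, their J-domain and BAG partners, 2 small heat shock proteins, the cytosolic HSP90 pair with 6 cochaperones, 4 mitochondrial chaperones and 7 subunits of the TRiC ring. All 38 symbols were found, and 37 passed the filter on low counts. Hspa1a did not.

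Liver RNA came from male wild-type C57BL/6J mice of 8 to 10 weeks of age, an inbred laboratory strain. All animals had gone through 3 days of synchronized daytime feeding with treadmill acclimation, were refed in the morning and then had their food removed. In the exercise group (6 mice), a single treadmill bout at 14 m/min for 3 hours followed, whereas the sedentary group (6 mice) stayed at rest, and both groups were sampled together when the bout ended. Each of the 12 libraries is 1 liver, so replicates were taken as separate mice, and exercise cannot be told apart from anything else that the treadmill bout brought with it.

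Chaperones bind unfolded protein chains and keep them from clumping. HSP70 proteins cycle between tight and loose binding with ATP, J-domain proteins bring the client and start the cycle, and nucleotide exchange factors of the HSP110 and BAG families end it. HSP90 receives selected clients, among them steroid hormone receptors and kinases, with the help of cochaperones, and the TRiC ring folds actin and tubulin in a closed chamber. HSF1 switches on many of these genes after heat or other protein damage by binding the heat shock element, a DNA motif of GAA units in alternating orientation.

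After exercise, 21 of the 37 tested chaperone genes rose, none fell, and 16 did not pass the test. Hspa8, Hspa2, Hsph1 and Dnajb1 each rose at least 2-fold. Hspa1b and Hspb1 rose 1.93-fold and 1.91-fold, with overlap between the groups. Hspb8, Chordc1 and Hspa4l rose by 1.66 to 1.73-fold, and the abundant Hsp90ab1 rose 1.51-fold. By role, 19 of 25 genes of the cytosolic HSP70, HSP90 and small heat shock protein systems rose, 1 of 4 mitochondrial chaperones and 1 of 7 TRiC subunits. Calls were made with edgeR's quasi-likelihood test and Benjamini-Hochberg adjustment over all 12344 genes tested, at an adjusted p below 0.05. In the same test 42.4% of all genes were called, 21.1% higher and 21.3% lower, so that a share of 56.8% of chaperone genes called higher stands against 21.1%. The members were chosen with earlier results of these data known, so this contrast describes the set and does not test it. The median log2 fold change was 0.26 over the chaperone genes and -0.0028 over all genes. At an unadjusted p below 0.05, 22 chaperone genes were higher and 0 were lower by edgeR, where 6128 of the 12344 genes passed in either direction. DESeq2 and limma-voom also called 0 lower, but 2 (Hspa4 and Dnaja2) were called lower when libraries were scaled by total counts alone, which moves the median of all genes to -0.098 and the calls over all genes from 2603 higher and 2626 lower to 1767 higher and 3735 lower.

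**Figure D1:**
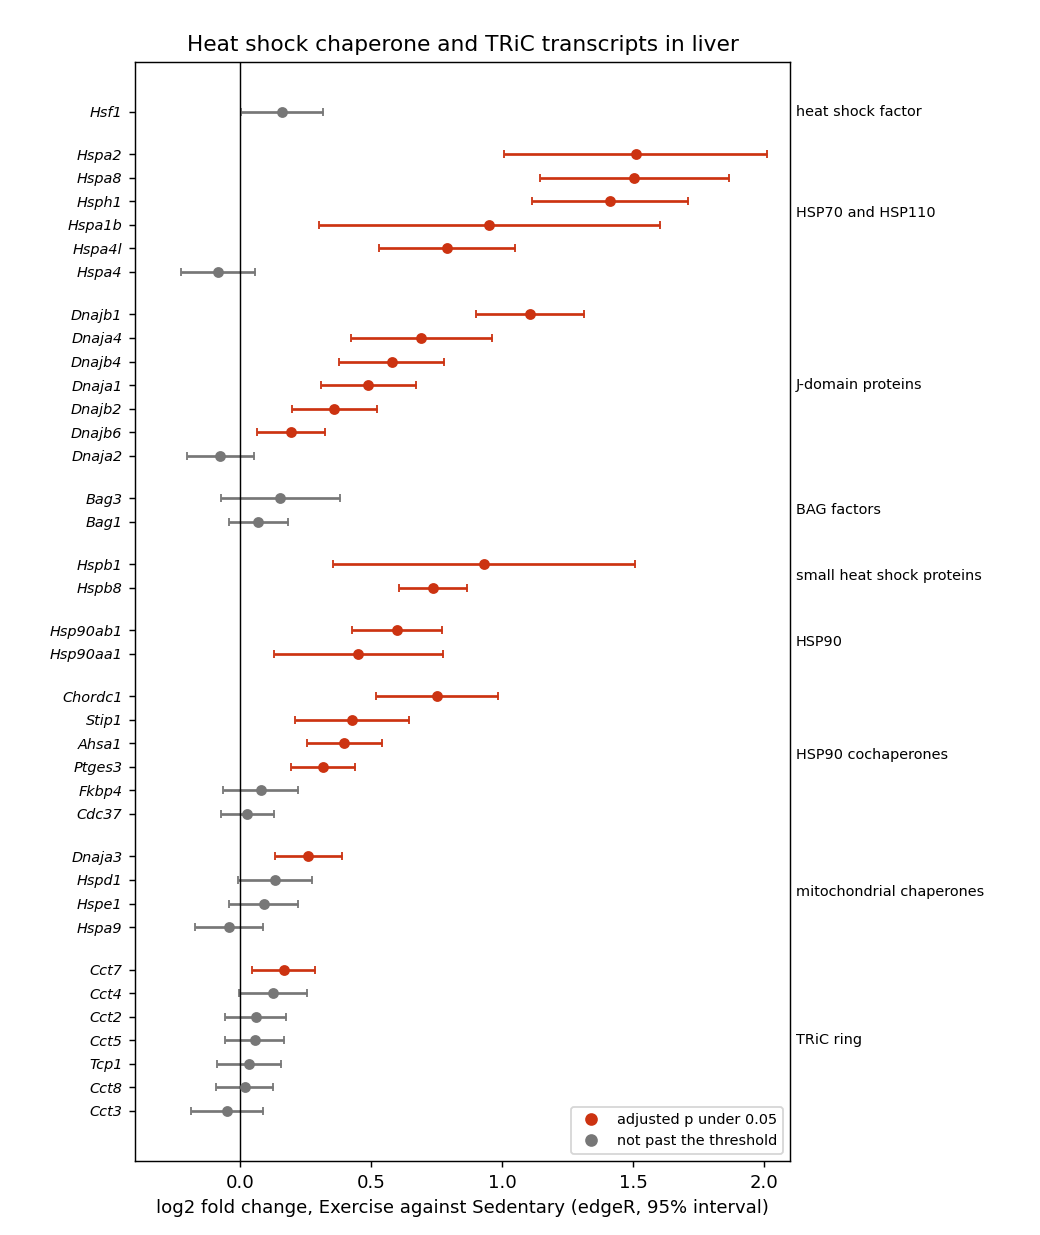
Log2 fold change, exercise over sedentary, of the 37 tested chaperone genes with 95% confidence intervals from edgeR, grouped by role; color marks genes past the adjusted threshold of 0.05. The HSP70, J-domain, small heat shock protein and HSP90 genes spread from -0.084 to 1.51, whereas the mitochondrial and TRiC genes lie between -0.050 and 0.26.

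Summed over its members, the set took up more of the transcript pool after exercise. Its members together held 0.427 to 0.557% of all estimated counts in sedentary livers (mean 0.507 ± 0.0455%, SD, n = 6) and 0.576 to 0.803% in exercised livers (0.675 ± 0.0773%, SD, n = 6). Every exercised liver lay above every sedentary one. Hspa8 and Hsp90ab1 had the highest CPM of its members in both groups and so weigh most in this share. From sedentary to exercised livers, mean CPM went from 578 to 1640 for Hspa8 and from 874 to 1323 for Hsp90ab1. The mean summed CPM of all members went from 4893 to 6974, and that of the TRiC subunits from 689 to 716.

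Library totals were even, from 18745379 to 19324461 estimated counts. The hepatocyte markers Alb, Apoa1, Ttr, Serpina1a, Cps1, Hnf4a, Tat and Cyp2e1 were all abundant, and their summed level, in CPM (counts scaled to library size with TMM factors), was 120030 to 160587 in sedentary and 149503 to 171070 in exercised livers. Of these 8, Alb (1.18-fold), Hnf4a (1.50-fold) and Tat (3.55-fold) were called higher, and Hnf4a and Tat did not overlap between the groups. None of 8 Kupffer cell markers was called (sums 82.6 to 138 and 96.6 to 150 CPM). Of 7 endothelial markers, Lyve1, Pecam1 and Oit3 were higher and Kdr was lower after exercise (sums 152 to 213 and 173 to 266 CPM). Of 8 stellate cell markers, 2 were lower (sums 177 to 231 and 166 to 243 CPM). Of 10 cardiac muscle markers, the 6 tested were all lower after exercise. The sums of the 10 were 11.7 to 25.2 CPM in sedentary and 0.637 to 12.97 CPM in exercised livers. The exercised median was 0 CPM for Myh6 and Myh7 and 0.026 CPM for Actc1. These genes therefore passed the filter on low counts mainly through the sedentary livers. The untested Myl2, Myl3, Mb and Fabp3 were at or near 0 in both groups. No cholangiocyte (5 tested), red cell (5 tested), lymphocyte (1 of 7 tested) or neutrophil (1 of 5 tested) marker was called. These counts stand beside 42.4% of all genes tested that were called, 21.1% higher and 21.3% lower. The part of the marked cell types in the chaperone results was not tested. In bulk tissue, a change in the number of cells of a type and a change in RNA per cell cannot be told apart.

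One exercised liver stood apart. Exercise replicate 1 had the highest level of its group in 28 of the 37 tested chaperone genes. It also had the highest cardiac marker sum of its group, 12.97 CPM, which lies within the sedentary range of 11.7 to 25.2 CPM. A link between this sum and the chaperone levels was not tested. At the other end, Exercise replicate 3 was the lowest of its group in 19 genes, and Sedentary replicate 5 was the lowest of its group in 23. Without Exercise replicate 1, 20 chaperone genes were called higher and 0 lower, with Hspa8 at 1.41, Hsph1 at 1.31 and Dnajb1 at 1.06 on the log2 scale.

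**Figure D2:**
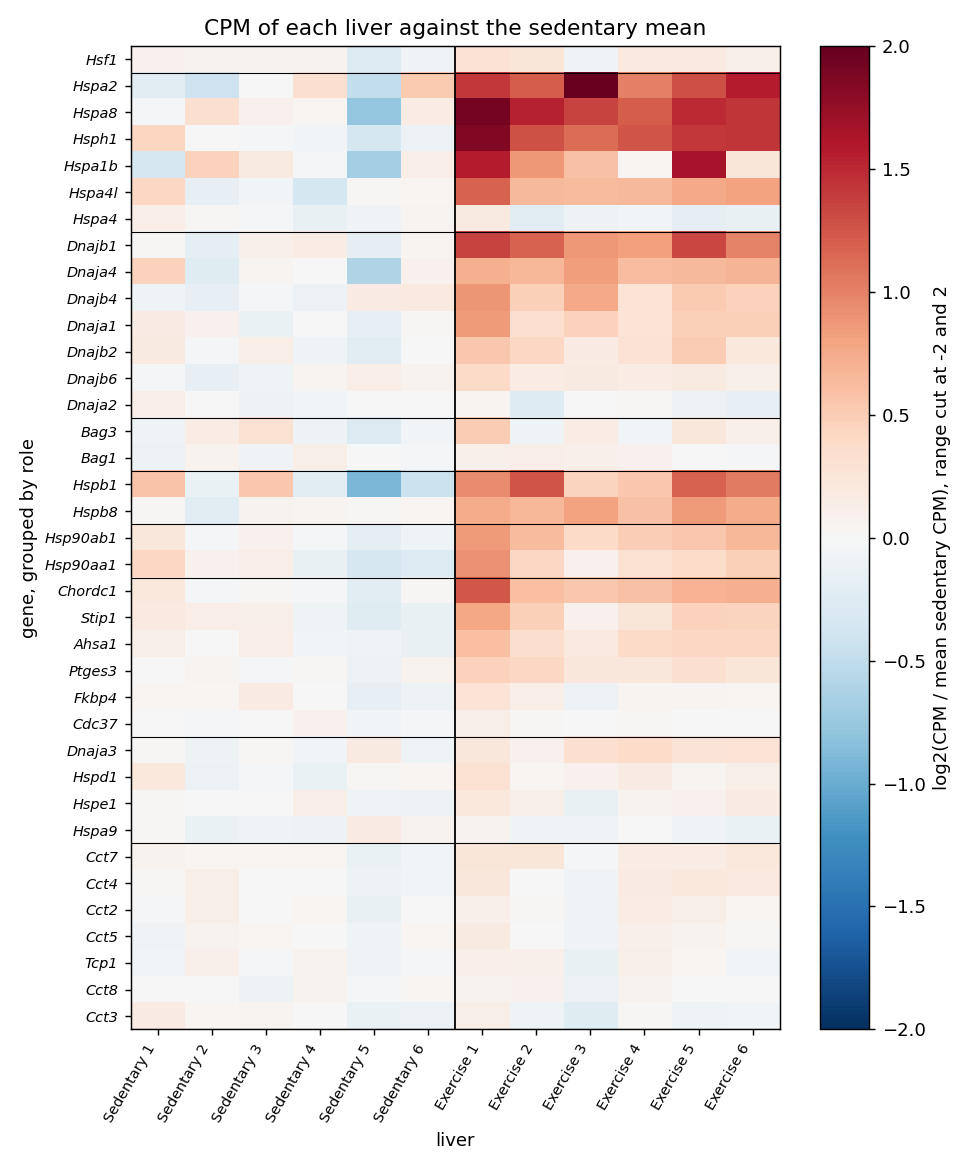
Level of each chaperone gene (vertical) in each of the 12 livers (horizontal), as the log2 difference from the sedentary mean, with the color scale ending at 2 in either direction. Exercise replicate 1 is the highest exercised liver in 28 of 37 genes and Sedentary replicate 5 the lowest sedentary liver in 23.

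The heat shock element was then searched in the promoters of the set, since these genes are its best known carriers. RefSeq (GRCm38.p6) gave windows from 250 bases before to 50 bases after the start for 32 of the 38 genes, 43 windows in all. Hsf1, Hspa8, Hspa9, Hsp90aa1, Hsp90ab1 and Cct4 had no window and were not searched. The letters searched were GAANNTTC and TTCNNGAA, where N is any base. Each reads the same on both strands, and both overlap in a longer element that holds 3 alternating units with the same spacing. A short form was present for 17 of the 32 genes (53.1%), against 14.2% of the 9918 tested genes with a window and 17.0% of all genes with a window. A 3-unit form was present for 5 of the 32 genes (15.6%), against 0.544% of the tested genes and 0.662% of all genes with a window. The set was chosen in part for known links to HSF1, so these shares describe it and test nothing. The stretches with a 3-unit form and 4 with the short form (Hspa1b, Hspa1a, Hspb1 and Dnaja4) are shown 5′ to 3′ with the motif letters in capitals, so that each can be set beside the values of its gene.
Hspa1b (chr17:34959303-34959362, minus strand): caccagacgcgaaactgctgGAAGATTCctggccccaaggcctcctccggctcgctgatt
Hspa1a (chr17:34972221-34972280, minus strand): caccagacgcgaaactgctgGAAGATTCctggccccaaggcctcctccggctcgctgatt
Hspb1 (chr5:135887782-135887849, plus strand): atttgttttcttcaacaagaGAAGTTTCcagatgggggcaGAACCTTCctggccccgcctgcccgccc
Dnaja4 (chr9:54699458-54699487, plus strand): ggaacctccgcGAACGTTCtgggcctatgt
Dnajb6 (chr5:29735844-29735873, plus strand): agctccgaGAATCTTCCGGAAcgctagacc
Hsph1 (chr5:149636279-149636308, minus strand, after the start): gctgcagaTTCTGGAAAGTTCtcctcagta
Chordc1 (chr9:18292260-18292289, plus strand, across the start): ccgGAACGTTCGGGAAAATTCCTGAAgcag
Hspe1 (chr1:55088053-55088082, plus strand): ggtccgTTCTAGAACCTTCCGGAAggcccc

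Among the 32 genes, which leave out the risen Hspa8, Hsp90aa1 and Hsp90ab1, a short form was found for 9 of 18 genes called higher and for 8 of 14 others, and a 3-unit form for 3 of 18 and 2 of 14. The 14 others include Hspa1a, which was not tested and had the short form. Hsph1, Chordc1 and Dnajb6 had the 3-unit form and rose. Hspd1 and Hspe1 also had it, in 1 stretch that lies in the window of Hspe1 and in 1 of the 2 windows of Hspd1, and neither was called. Dnajb1, Hspa2 and Hspa4l rose, and their windows did not hold the letters searched. A match describes these letters and does not show that a factor binds there. Hspa1a and Hspa1b, which lie 9951 bases apart on chromosome 17, share 247 of the 250 bases before their starts (98.8%).

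Hsf1 (gene ID 15499, chromosome 15 from 76477422 to 76501913 of GRCm38) encodes the factor that binds the element. Its level was 15.3, 19.4 and 19.7 CPM (lowest, median and highest) in sedentary livers and 17.5, 21.0 and 22.5 CPM in exercised livers. The groups overlapped, and the log2 difference of 0.16 (standard error 0.075, adjusted p = 0.0905 by edgeR) did not pass the threshold. It did without Exercise replicate 3 (0.21, adjusted p = 0.0288 by edgeR). The factor is known to be controlled mainly as a protein, which was not measured here.

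Hspa8 encodes HSC70, the HSP70 protein that every cell makes without stress, which also uncoats clathrin vesicles and carries clients to the lysosome (gene ID 15481, chromosome 9 from 40800984 to 40810087). It was counted at 338, 607 and 718 CPM in sedentary livers (mean 578 ± 129, SD, n = 6) and at 1336, 1592 and 2179 CPM in exercised livers (1640 ± 290, SD, n = 6). The lowest exercised liver was well above the highest sedentary liver. Its log2 fold change was 1.50 (standard error 0.17, 95% confidence interval 1.15 to 1.86, adjusted p = 1.57e-05 by edgeR), a 2.84-fold rise, and from 1.39 to 1.58 with any 1 liver left out. Of 100-base stretches of its transcript, 62.8% also occur in other annotated genes, most of them in the pseudogene Gm15459. Its estimated counts were whole numbers in all 12 libraries. Whole counts, here and for Hspb1 and Hsp90aa1 below, do not show where shared reads were counted, since the annotation used is not given.

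The stress-inducible HSP70 pair, Hspa1a and Hspa1b, is classically induced by heat from a low resting level. In these livers both were near the bottom of the set in FPKM. Hspa1a (gene ID 193740) had 0 to 15.5 estimated counts per library, at 0, 0.158 and 0.504 CPM in sedentary and 0.165, 0.481 and 0.852 CPM in exercised livers. The groups overlapped, and it was not tested by edgeR. A two-sided exact permutation test on log2(CPM + 0.5) gave p = 0.0325 for Hspa1a, not adjusted for the number of genes.

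Hspa1b (gene ID 15511, chromosome 17 from 34956436 to 34959238) was at 1.90, 3.15 and 4.20 CPM in sedentary and 3.14, 5.06 and 9.54 CPM in exercised livers. Some exercised livers lay within the sedentary range. The log2 fold change was 0.95 (standard error 0.30, adjusted p = 0.0224 by edgeR). Both genes share near-identical sequence (49.9% of 100-base stretches of Hspa1b occur in Hspa1a), the counts of Hspa1b were not whole in any of the 12 libraries, and the split between the pair is uncertain. The 2 genes summed gave 0.98 (adjusted p = 0.0182 by edgeR). In FPKM, which is scaled for transcript length, the pair amounted to 0.416 ± 0.050% of Hspa8 in sedentary livers and 0.284 ± 0.107% in exercised livers (SD, n = 6), with ranges of 0.317 to 0.452% and 0.184 to 0.473% that overlapped.

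Hspa2, a member of the family best known from the testis, showed a fold change like that of Hspa8 from a far lower level (gene ID 15512, chromosome 12 from 76404176 to 76406938). It was at 0.544, 0.707 and 1.09 CPM in sedentary and 1.54, 1.94 and 3.71 CPM in exercised livers. There was no overlap, with Exercise replicate 3 the highest. The log2 fold change was 1.51 (standard error 0.24, adjusted p = 7.41e-05 by edgeR). On the log2(FPKM + 1) scale, which compresses low genes, it was 0.48.

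The HSP110 proteins act as nucleotide exchange factors for HSP70 and hold unfolded chains. Hsph1 (gene ID 15505, chromosome 5 from 149614287 to 149636376) was at 24.9, 31.0 and 42.8 CPM in sedentary and 69.1, 81.0 and 115 CPM in exercised livers. The groups were clearly apart, and the log2 fold change was 1.41 (standard error 0.14, adjusted p = 4.56e-06 by edgeR), a 2.66-fold rise. Hspa4l (gene ID 18415, chromosome 3 from 40744495 to 40796103), at 19.8, 24.9 and 33.5 CPM in sedentary and 39.0, 41.1 and 57.3 CPM in exercised livers, also did not overlap. Its log2 fold change was 0.79 (standard error 0.12, adjusted p = 0.000125 by edgeR).

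Hspa4, the paralog of these 2 genes, behaved otherwise. Its level was 84.3, 93.0 and 102 CPM in sedentary and 80.2, 85.0 and 105 CPM in exercised livers. The groups overlapped, and the log2 fold change was -0.084 (95% confidence interval -0.23 to 0.058, adjusted p = 0.343 by edgeR). Scaled by library totals alone it was -0.18 (adjusted p = 0.0494 by edgeR). In sedentary FPKM, Hspa4 was the highest of the 3 HSP110 genes (21.0 ± 1.97, against 9.85 ± 2.07 for Hsph1 and 4.86 ± 1.00 for Hspa4l, SD, n = 6). After exercise the mean for Hsph1 was the highest, 24.5 ± 4.60 against 18.5 ± 1.80 for Hspa4.

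**Figure D3:**
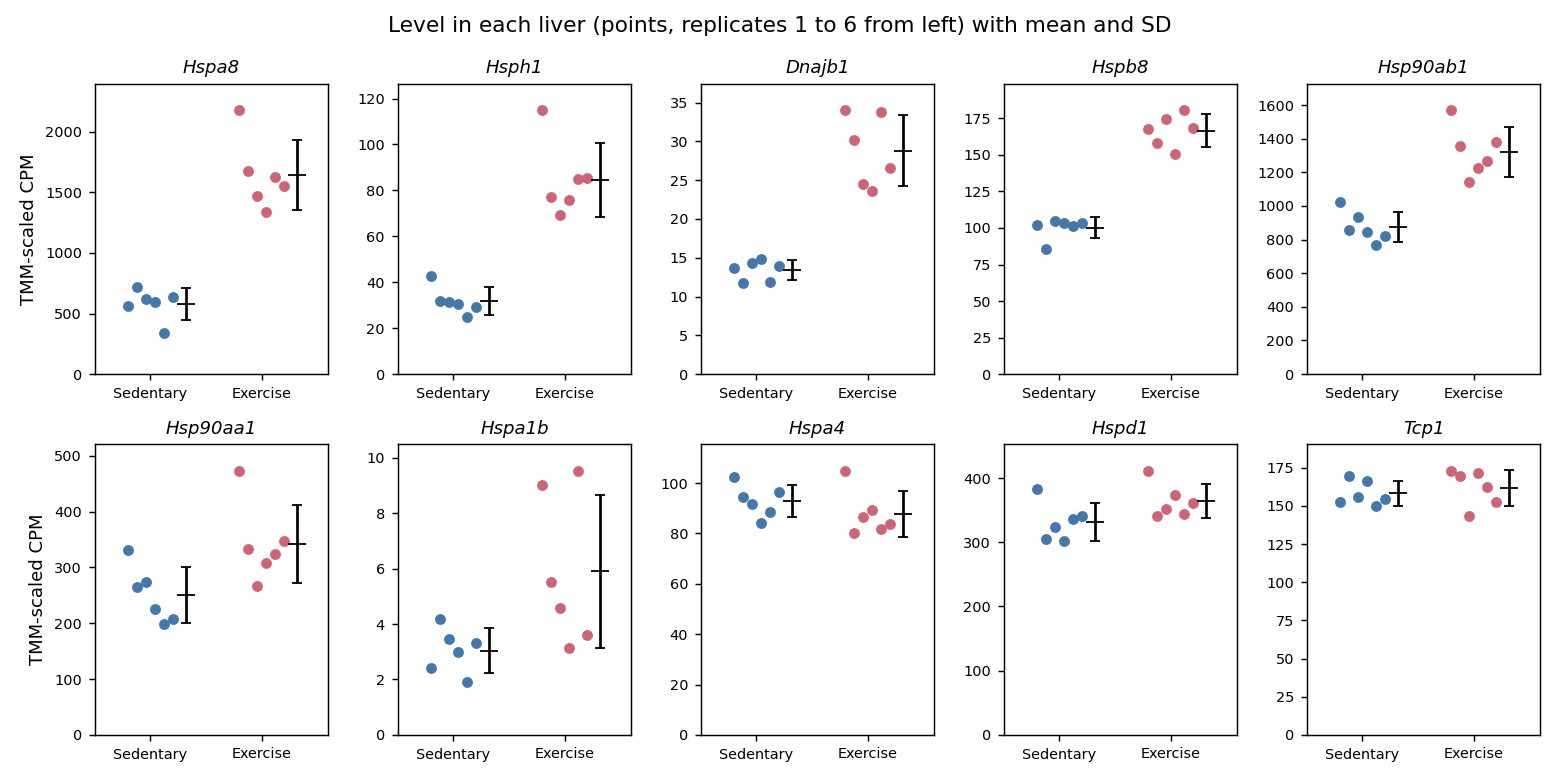
Level in CPM (vertical, linear from 0) of selected chaperone genes in each sedentary and exercised liver, with points for livers (replicates 1 to 6 from the left) and bars for the mean ± SD (n = 6). Hspa8, Hsph1, Dnajb1, Hspb8 and Hsp90ab1 do not overlap between the groups, whereas Hsp90aa1, Hspa1b, Hspa4, Hspd1 and Tcp1 do.

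J-domain proteins hand clients to HSP70 and start its ATP cycle. Of the 7 that work in the cytosol and nucleus (mitochondrial Dnaja3 is counted with its compartment), 6 rose, where 21.1% of all genes were called higher. The median log2 fold change of the 7 was 0.49, and 4 of the 6 did not overlap between the groups. Over the whole set, 13 of 37 genes (35.1%) did not overlap, all of them higher, against 22.3% of all genes tested (11.7% higher and 10.6% lower). Dnajb1, the classical partner of HSP70 in the cytosol and a feedback brake on HSF1 (gene ID 81489, chromosome 8 from 83608193 to 83612653), was at 11.7, 13.8 and 14.8 CPM in sedentary and 23.6, 28.4 and 34.0 CPM in exercised livers. The lowest exercised liver exceeded the highest sedentary one by a wide margin. Its log2 fold change was 1.11 (standard error 0.098, adjusted p = 2.22e-07 by edgeR), and from 1.06 to 1.16 with any liver left out.

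Dnaja1, the abundant farnesylated partner of HSC70, was at 163, 185 and 207 CPM in sedentary and 222, 254 and 330.1 CPM in exercised livers. These groups did not overlap, and the log2 fold change was 0.49 (standard error 0.086, adjusted p = 0.000187 by edgeR). Its close relative Dnaja4 was at 3.21, 5.02 and 6.75 CPM in sedentary and 7.49, 7.81 and 8.69 CPM in exercised livers, again apart (log2 fold change 0.69, adjusted p = 0.000311 by edgeR). Dnaja2, the third of this class, was at 88.8, 95.1 and 104 CPM in sedentary and 79.4, 91.5 and 98.4 CPM in exercised livers. It overlapped and was not called (log2 fold change -0.075, adjusted p = 0.351 by edgeR), though it was called lower under scaling by library totals (-0.17, adjusted p = 0.0306 by edgeR).

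Dnajb4, a relative of Dnajb1, was at 19.8, 21.3 and 25.3 CPM in sedentary and 26.9, 31.4 and 40.9 CPM in exercised livers. The groups did not overlap (log2 fold change 0.58, adjusted p = 0.000115 by edgeR). Dnajb2 and Dnajb6, which keep misfolded proteins from aggregating, rose with overlap, by 0.36 (adjusted p = 0.00107 by edgeR) and 0.19 (adjusted p = 0.0160 by edgeR). The call for Dnajb6 was lost under library totals (0.10, adjusted p = 0.185 by edgeR) and in limma on log2(FPKM + 0.1) (0.046, adjusted p = 0.535) and log2(FPKM + 1) (0.045, adjusted p = 0.534). Of its 100-base stretches, 31.0% occur in other annotated genes. Dnaja1, Dnaja4 and Dnajb6 overlap genes of the opposite strand (Smu1, Wdr61 and Gm5129), and the use of strand in the counting is not given in the sources used here.

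The BAG factors release clients from HSP70. Bag3, which directs clients to autophagy and is widely used as a marker of HSF1 activity (gene ID 29810), was at 28.5, 32.9 and 42.6 CPM in sedentary and 32.6, 37.9 and 49.3 CPM in exercised livers. The groups overlapped broadly, and the log2 fold change was 0.15 (95% confidence interval -0.073 to 0.38, adjusted p = 0.270 by edgeR). Bag1, which links HSP70 to the proteasome, was at 66.9, 72.2 and 78.5 CPM in sedentary and 71.7, 77.4 and 79.2 CPM in exercised livers. It was not called (log2 fold change 0.070, 95% confidence interval -0.041 to 0.18, adjusted p = 0.310 by edgeR), and its sign turned under library totals (-0.027).

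Small heat shock proteins hold unfolded chains without ATP. Hspb8, the partner of BAG3 (gene ID 80888, chromosome 5 from 116408491 to 116422864), had the smallest p of the set. It was at 85.7, 103 and 105 CPM in sedentary and 150.3, 168 and 181 CPM in exercised livers, with a wide gap between the groups. Its log2 fold change was 0.74 (standard error 0.062, adjusted p = 1.12e-07 by edgeR), a 1.66-fold rise.

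Hspb1, the mouse HSP25 (gene ID 15507, chromosome 5 from 135887919 to 135889563), varied much more. It was at 16.3, 27.4 and 45.8 CPM in sedentary and 42.1, 61.2 and 73.4 CPM in exercised livers, with a narrow overlap. The log2 fold change was 0.93 (standard error 0.26, adjusted p = 0.0148 by edgeR). Of its 100-base stretches, 42.7% occur in the pseudogene Hsp25-ps1, and its counts were whole in all 12 libraries.

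HSP90 was represented by its cytosolic isoforms. Hsp90ab1, the constitutive isoform (gene ID 15516, chromosome 17 from 45567775 to 45573271), was at 767, 850.2 and 1022 CPM in sedentary and 1144, 1309 and 1570.3 CPM in exercised livers. The groups did not overlap, and the log2 fold change was 0.60 (standard error 0.082, adjusted p = 1.76e-05 by edgeR).

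Hsp90aa1, the isoform induced by stress (gene ID 15519, chromosome 12 from 110690605 to 110702728), was at 198, 245 and 332 CPM in sedentary and 266, 329 and 473 CPM in exercised livers. Several livers of the groups overlapped. The log2 fold change was 0.45 (standard error 0.15, adjusted p = 0.0273 by edgeR). It lost its call under library totals (0.35, adjusted p = 0.0998), in limma on log2(FPKM + 0.1) (adjusted p = 0.0667) and on log2(FPKM + 1) (adjusted p = 0.0684), and with all genes of at least 1 count kept (adjusted p = 0.0506). The call was also lost without Sedentary replicate 4 (0.42, adjusted p = 0.0566), 5 (0.40, adjusted p = 0.0524) or 6 (0.40, adjusted p = 0.0540). Of its 100-base stretches, 47.5% occur in other annotated genes, and its counts were whole in all 12 libraries. The ratio of Hsp90aa1 to Hsp90ab1 in FPKM was 0.249 ± 0.026 in sedentary and 0.225 ± 0.0205 in exercised livers (SD, n = 6), with ranges of 0.221 to 0.285 and 0.204 to 0.264 that overlapped.

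Of the 6 HSP90 cochaperones, 4 rose, where 21.1% of all genes tested were called higher. Chordc1, a zinc-binding partner of HSP90, was at 19.4, 22.6 and 26.3 CPM in sedentary and 33.0, 35.7 and 53.7 CPM in exercised livers. There was no overlap, and the log2 fold change was 0.75 (standard error 0.11, adjusted p = 5.90e-05 by edgeR). Without Exercise replicate 1, the highest, it was 0.63.

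Ahsa1, the activator of the HSP90 ATPase, was at 78.8, 86.0 and 95.3 CPM in sedentary and 99.4, 115 and 133 CPM in exercised livers. Ptges3, the p23 cochaperone that steadies the closed form of HSP90, was at 58.8, 64.4 and 66.9 CPM in sedentary and 74.3, 77.7 and 87.8 CPM in exercised livers. Neither overlapped, with log2 fold changes of 0.40 (adjusted p = 0.000153 by edgeR) and 0.32 (adjusted p = 0.000253 by edgeR). Stip1, the HOP protein that joins HSP70 to HSP90, was at 97.9, 116 and 132 CPM in sedentary and 122, 158 and 196 CPM in exercised livers. It overlapped and was called (log2 fold change 0.43, adjusted p = 0.00322 by edgeR).

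The kinase-loading cochaperone Cdc37 and the immunophilin Fkbp4 were not called. Cdc37 was at 79.1, 82.0 and 87.8 CPM in sedentary and 81.8, 83.4 and 89.8 CPM in exercised livers, with a log2 fold change of 0.028 (95% confidence interval -0.072 to 0.13, adjusted p = 0.675 by edgeR). Fkbp4 was at 211, 238 and 263 CPM in sedentary and 218, 245 and 285 CPM in exercised livers, with a log2 fold change of 0.079 (95% confidence interval -0.064 to 0.22, adjusted p = 0.376 by edgeR). Both turned in sign under library totals (-0.068 and -0.017). Of the 100-base stretches of Ptges3 and Ahsa1, 20.2% and 10.0% occur in other annotated genes.

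Inside the mitochondrion, HSP60 (Hspd1) and HSP10 (Hspe1) form the folding chamber, Hspa9 (mortalin) pulls in imported chains, and Dnaja3 is its J-domain partner. Hspd1 (gene ID 15510) and Hspe1 (gene ID 15528) lie head to head on chromosome 1, from 55077835 to 55088243 and from 55088132 to 55091307, and overlap by 112 bases. Hspd1 was at 302, 330.2 and 382 CPM in sedentary and 342, 357 and 411 CPM in exercised livers. The groups overlapped, and the log2 fold change was 0.13 (95% confidence interval -0.0062 to 0.27, adjusted p = 0.116 by edgeR), although it was called without Sedentary replicate 1 (0.18, adjusted p = 0.0288 by edgeR).

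Hspe1 was at 155, 166 and 183 CPM in sedentary and 150.0, 178 and 192 CPM in exercised livers. It overlapped, with a log2 fold change of 0.090 (95% confidence interval -0.043 to 0.22, adjusted p = 0.271 by edgeR) that turned to -0.0052 under library totals. Hspa9 was at 448, 481 and 550 CPM in sedentary and 446, 467 and 514 CPM in exercised livers, with a log2 fold change of -0.043 (95% confidence interval -0.17 to 0.087, adjusted p = 0.615 by edgeR). Dnaja3 was the 1 mitochondrial member that was called, at 80.5, 85.3 and 97.2 CPM in sedentary and 91.6, 104 and 111 CPM in exercised livers. It overlapped slightly (log2 fold change 0.26, adjusted p = 0.00219 by edgeR). Dnaja3 shares ground with Coro7 on the opposite strand and Vasn on the same strand.

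The 7 TRiC subunits in the set were Tcp1, Cct2, Cct3, Cct4, Cct5, Cct7 and Cct8. Their summed level was 645.5 to 724.9 CPM in sedentary livers (mean 689 ± 26.9, SD, n = 6) and 639.6 to 763.7 CPM in exercised livers (716 ± 42.5, SD, n = 6). The ranges overlapped almost fully. The log2 fold changes ran from -0.050 for Cct3 to 0.17 for Cct7, with a median of 0.055, and all 7 genes overlapped between the groups.

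Cct7 was the 1 subunit called, at 69.4, 78.4 and 79.9 CPM in sedentary and 75.6, 86.9 and 90.6 CPM in exercised livers (adjusted p = 0.0251 by edgeR). Its call was lost without Sedentary replicate 6 (adjusted p = 0.0532), Exercise replicate 1 (adjusted p = 0.0505) or Exercise replicate 2 (adjusted p = 0.0549), and under upper-quartile scaling (adjusted p = 0.0575), library totals (0.071, adjusted p = 0.441) and limma on log2(FPKM + 0.1) (0.070, adjusted p = 0.460) and log2(FPKM + 1) (0.068, adjusted p = 0.460). Cct4, at 0.13 (adjusted p = 0.111 by edgeR), was called without Exercise replicate 3 (0.17, adjusted p = 0.0331 by edgeR). Tcp1 (0.035), Cct2 (0.060), Cct5 (0.055) and Cct8 (0.018) were positive in this fit and negative under library totals. Tcp1 (Mrpl18, Acat3), Cct7 (Pradc1) and Cct8 (Usp16) overlap other genes, named in brackets, on the opposite strand. The 95% confidence interval of Tcp1 was -0.088 to 0.16, and that of Cct8 was -0.092 to 0.13. Cct6a, a further subunit outside the set, was at -0.11 (adjusted p = 0.141 by edgeR).

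The order of transcripts by length-scaled level also changed at the top. In sedentary livers the mean FPKM was 368 ± 44.9 for Hsp90ab1, 293 ± 73.0 for Hspa8, 238 ± 18.9 for Hspe1, 168 ± 10.8 for Hspa9 and 150.1 ± 14.4 for Hspd1 (SD, n = 6). In exercised livers Hspa8 came first, at 773 ± 142, followed by Hsp90ab1 at 521 ± 65.4, Hspe1 at 238 ± 24.5 and Hspd1 at 154 ± 10.8. Hspa8 exceeded Hsp90ab1 in FPKM in 1 of 6 sedentary livers and in 6 of 6 exercised livers. The neighbors Hspa9 (153 ± 8.80) and Hspd1 did not differ beyond their spread after exercise.

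Hspa8 made up 7.98 to 14.8% of the summed FPKM of the 38 genes in sedentary livers (mean 12.1 ± 2.39%, SD, n = 6) and 21.4 to 27.2% in exercised livers (24.2 ± 1.91%, SD, n = 6). Each exercised liver was above each sedentary liver.

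**Figure D4:**
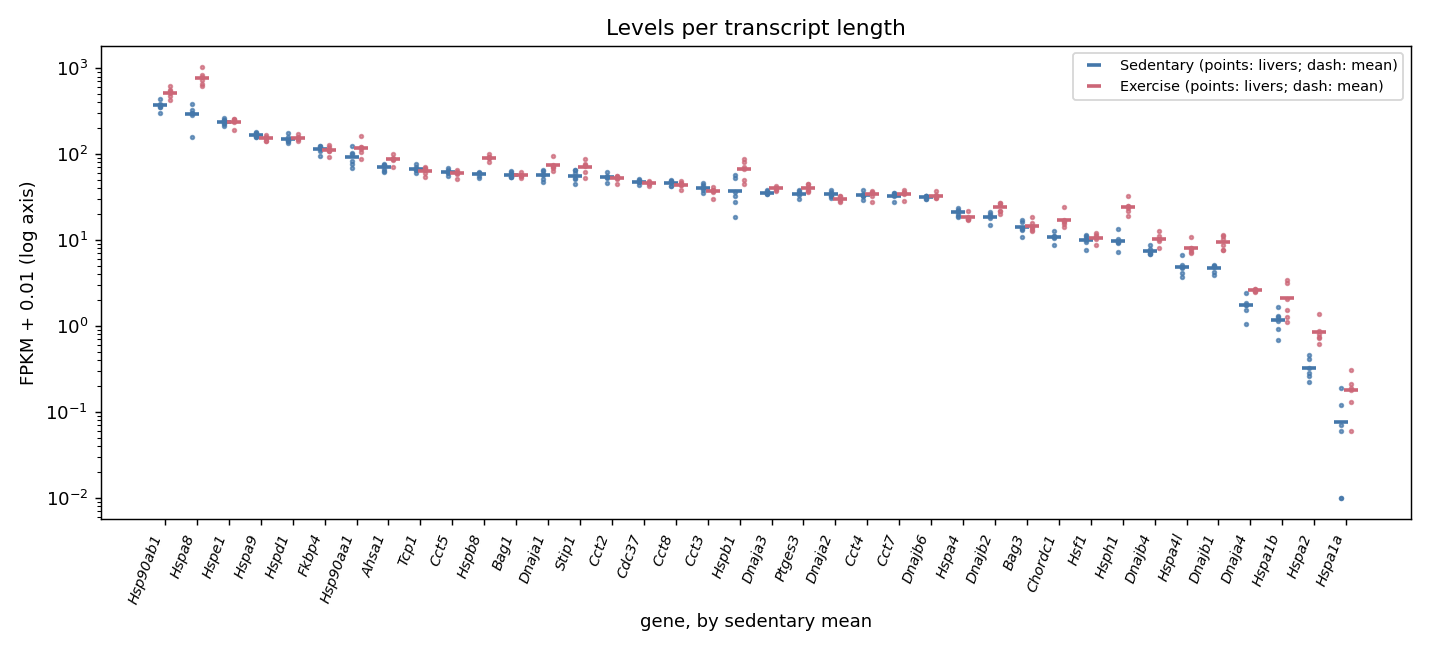
FPKM (vertical, log axis, with 0.01 added so that zeros can be drawn) of each of the 38 chaperone genes (horizontal, ordered by sedentary mean), with points for the 6 livers of each group and dashes for the means. Hsp90ab1 leads in sedentary livers (368) and Hspa8 in exercised livers (773), while Hspa1a lies at the bottom (0.067 and 0.17).

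Other genes of the chaperone network, outside the set, moved in both directions. Of 58 listed, 57 were tested, 15 were higher and 10 lower, with a median log2 fold change of -0.011. The share called was 43.9%, close to the 42.4% of all genes tested (21.1% higher and 21.3% lower). Among those higher with the smallest p, St13, an HSP70 cochaperone, rose by 0.43 (adjusted p = 0.000183 by edgeR) and Dnajc3, a J-domain protein of the endoplasmic reticulum, by 0.48 (adjusted p = 7.84e-05 by edgeR). Serpinh1, the collagen chaperone, rose by 0.71 (adjusted p = 0.000319 by edgeR), Dnajc9, a histone chaperone, by 0.60 (adjusted p = 0.000512 by edgeR), and Hspa13 by 0.45 (adjusted p = 0.000627 by edgeR). The largest log2 fold change of the list was that of Fkbp5, at 1.71 (adjusted p = 0.00119 by edgeR), with no overlap between the groups.

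Those lower with the smallest p were Dnajc30, a J-domain protein of the inner mitochondrial membrane (log2 fold change -1.01, adjusted p = 2.66e-07 by edgeR), Dnajc8, which is found with the spliceosome (-0.32, adjusted p = 0.00103), Txndc9, a TRiC cofactor (-0.26, adjusted p = 0.00134), Ttc4 (-0.27, adjusted p = 0.00458) and Grpel1, the exchange factor of Hspa9 (-0.20, adjusted p = 0.00584). Dnajc30 was at 18.2, 23.4 and 25.0 CPM in sedentary and 8.89, 11.2 and 12.5 CPM in exercised livers, with no overlap. In mitochondria, the HSP90 paralog Trap1 was at -0.0012 (adjusted p = 0.989 by edgeR), whereas the unfoldase Clpx (0.31, adjusted p = 0.0192 by edgeR) and the disaggregase Clpb (0.18, adjusted p = 0.00657 by edgeR) were higher. Also mitochondrial, Clpp (-0.073), Lonp1 (0.023), Grpel2 (-0.067) and Hscb (0.090) were not called. Fkbp5, Trap1, Clpx, Clpb, Clpp, Lonp1, Grpel2, Hscb and Cct6a were chosen after their values were seen.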

How the data were processed

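Liver RNA of 12 mice was sequenced, 6 per group by the sample labels. The authors deposited estimated counts per gene, not scaled between libraries, of which 31.3% were not whole, and FPKM values, which the authors scaled for transcript length and depth. The submitters' processing notes name Bowtie2 2.3.4.3, RSEM 1.3.1 and the build mm10 (GRCm38). The annotation, the use of strand and a test are not given in the sources used here. Depth was even, between 18745379 and 19324461 counts. Counting error matters mainly for genes counted at low levels.

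Counts were rounded and tested by the quasi-likelihood F test of edgeR 4.0.16 under R 4.3.3, with TMM factors, robust dispersions, filterByExpr at a minimum count of 10, and Benjamini-Hochberg adjustment over the 12344 genes left, at a threshold of 0.05. Each gene's mean log2(CPM + 0.5) was also compared over all 924 relabellings (two-sided exact permutation test, smallest possible p 0.00216). Alternatives were other filters and scalings, DESeq2 1.42.0, limma 3.58.1 (voom, and log2(FPKM + 0.1) or log2(FPKM + 1)), a replicate block, a threshold of 0.01 and each liver left out. Summing Hspa1a and Hspa1b was added after seeing the data. Among 66 library pairs 0 were identical. The tests were tried on simulated counts. Promoters came from RefSeq (GRCm38.p6), positions and shared 100-base stretches from GENCODE M21, with Python 3.11.15.

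All 38 members are named. The other chaperone genes are given by the 5 smallest adjusted p in each direction, apart from those named as chosen after their values were seen. The members and the lists were chosen with earlier results of these data known, and the lists come from general knowledge.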

Additional observations from a re-analysis of the deposited data

Results flagged for a closer look

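In 10 of 74 groups of 6 livers checked, 1 for each tested chaperone gene and group, the highest or lowest liver lay far from the others, that is, its gap to the nearest exceeded 0.625 of the whole range (Dixon's value at 95%). Chance alone gives about 1 in 20, here 3.7. The 74 groups share the same 12 livers, so they are not independent.

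Exercise replicate 1 was the far liver in 7 of the 10, always as the highest. It was at 57.3 CPM for Hspa4l (next 43.9), 115 CPM for Hsph1 (next 85.6), 330.1 CPM for Dnaja1 (next 255) and 53.7 CPM for Chordc1 (next 37.0). It was also at 105 CPM for Hspa4 (next 89.3), 67.6 CPM for Dnajb6 (next 58.7) and 89.8 CPM for Cdc37 (next 84.4). Exercise replicate 3 was far in 2, as the highest liver for Hspa2 at 3.71 CPM (next 2.26) and as the lowest for Cct7 at 75.6 CPM (next 85.0). Sedentary replicate 2 was the lowest for Hspb8, at 85.7 CPM (next 101). What sets these livers apart was not tested.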

How the results depend on the processing

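At the threshold of 0.05 the alternative fits called 18 to 21 chaperone genes higher (16 at a threshold of 0.01 in the reported fit), and 19 to 23 with 1 liver left out, where 0 were lower. Of the 37 tested, 29 kept their direction and 19 also their side of the threshold in every fit at 0.05. Library totals alone called 2 lower, and limma on log2(FPKM + 0.1) and log2(FPKM + 1) called 1 each (Dnaja2). For these 3 settings in turn, the other chaperone genes numbered 9, 8 and 8 higher and 17, 17 and 17 lower. Over all genes, the limma fits called 1711 and 1714 higher, against 2603, and 3713 and 3725 lower, against 2626. In these settings the median of all genes was -0.098, -0.093 and -0.066, and small log2 fold changes turned negative: Bag1 -0.027, -0.025 and -0.024, Cdc37 -0.068, -0.065 and -0.064, Fkbp4 -0.017, -0.018 and -0.018, Hspe1 -0.0052, -0.0083 and -0.0082, Tcp1 -0.061, -0.067 and -0.066, Cct2 -0.038, -0.036 and -0.036, Cct5 -0.041, -0.042 and -0.041, and Cct8 -0.078, -0.079 and -0.077. Cct8 was -0.0031 by upper quartile and -0.0020 to 0.049 with 1 liver left out. With the replicate number as a block 19 were called, without Hspa1b (0.87, adjusted p = 0.0950 by edgeR) and Hspb1 (0.98, adjusted p = 0.0603 by edgeR). Same-numbered livers had correlations of -0.099 to 0.16, and 1 of 6 exercised livers correlated best with its own number, so the numbers were not taken as pairs. Depth limits Hspa1a, Hspa1b and Hspa2. The causes of these shifts were not tested.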
